A study of Homo sapiens with 12 samples.

Results

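The type I interferon response genes described here are 40 genes given as a list of symbols, and all 40 were matched among the 62069 gene identifiers of the count table. The list rests on no threshold of measured values, but it was chosen with earlier results of these data known. After a filter on low counts, 31 of the 40 were tested, among 13248 genes tested in all, and 9 were not. RNA was sequenced from IMR90 ER:RAS cells. These are fibroblasts of human fetal lung with a fusion of oncogenic RAS and the oestrogen receptor's ligand-binding part, which 4-hydroxytamoxifen (4OHT) activates. Every group carried ER:RAS and was taken at day 6 and passage 15. The DMSO group, given the solvent, holds libraries 17 to 20. The 4OHT group, given 100 nM, holds libraries 21 to 24. The 4OHT+3DA group, given 100 nM 4OHT and also 3DA, holds libraries 29 to 32. The labels give neither the dose of 3DA nor when it was added. This compound, 3-deazaadenosine, is an analogue of adenosine that blocks the hydrolase of S-adenosylhomocysteine. The series design calls the DMSO cells non-senescent and the 4OHT cells senescent. No cells given 3DA alone and no cells without ER:RAS given 4OHT were analysed here, so effects of 4OHT itself and of RAS cannot be told apart. Whether replicates are separate cultures is not in the labels, so the p-values rest on a spread between samples that could be technical only.

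Type I interferons are secreted proteins that bind the receptor IFNAR1/IFNAR2. The kinases JAK1 and TYK2 then phosphorylate transcription factors of the STAT family. STAT2 and IRF9 are parts of a complex that binds interferon-stimulated response elements (ISRE) in promoters. STAT dimers bind another element, the gamma-activated site (GAS). The induced genes include sensors of foreign RNA, enzymes that degrade or sequester RNA, proteins that block viral entry, and the ubiquitin-like modifier ISG15 with its enzymes. In senescent fibroblasts the pathway is known to be engaged by cytosolic DNA through cGAS and STING.

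The members are known targets of interferon, and the letters of the interferon elements were looked for in their promoters. RefSeq promoter windows of 300 bases (GRCh38.p14, 250 before and 50 after the annotated start) were found for 31 of the 40 members, 41 windows in all. The ISRE letters, GAAA followed after 2 bases of any kind by a second GAAA, were searched on both strands (TTTC and TTTC on the other) and occurred in 26 of these 41 windows (63.4%), against 3.57% of all 35116 windows of the table. The GAS letters TTCNNNGAA read the same on both strands and occurred in 11 of 41 windows (26.8%), against 7.66% of all windows. A match is a description of letters and not of a bound site. Matches were found in members of every kind of call: 12 of the 16 members with a window that fell with 4OHT held the ISRE letters, 1 of 2 that rose, 4 of 7 not called and 5 of 6 not tested. The 150 bases before the start are shown for 8 members, chosen after calls and matches were seen because together they show genes that fell (IFIT1, OAS3, DDX60, PARP14, GBP1), rose (ISG20, CMPK2) or were not called with 4OHT (IRF9), with both kinds of letters and with neither. Each runs 5′ to 3′ on the strand of the gene, and capitals mark ISRE and GAS letters.
IFIT1: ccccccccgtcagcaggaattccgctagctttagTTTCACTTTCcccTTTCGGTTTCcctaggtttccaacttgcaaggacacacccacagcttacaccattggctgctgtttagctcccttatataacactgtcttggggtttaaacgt
OAS3: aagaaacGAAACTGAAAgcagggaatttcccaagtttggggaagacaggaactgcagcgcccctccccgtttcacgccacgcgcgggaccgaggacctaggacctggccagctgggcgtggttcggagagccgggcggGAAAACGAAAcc
DDX60: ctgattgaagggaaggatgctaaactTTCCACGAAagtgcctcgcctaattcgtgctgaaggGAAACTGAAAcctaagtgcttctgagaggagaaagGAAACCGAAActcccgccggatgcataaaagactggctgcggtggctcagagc
PARP14: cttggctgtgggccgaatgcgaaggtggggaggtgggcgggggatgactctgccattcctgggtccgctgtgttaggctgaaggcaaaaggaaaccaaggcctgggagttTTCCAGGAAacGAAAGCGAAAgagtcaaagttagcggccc
GBP1: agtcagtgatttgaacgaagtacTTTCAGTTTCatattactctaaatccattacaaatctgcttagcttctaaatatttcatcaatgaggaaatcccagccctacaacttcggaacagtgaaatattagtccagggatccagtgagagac
ISG20: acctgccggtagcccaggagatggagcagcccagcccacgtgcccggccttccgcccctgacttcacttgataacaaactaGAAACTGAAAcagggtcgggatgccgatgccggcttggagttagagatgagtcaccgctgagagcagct
CMPK2: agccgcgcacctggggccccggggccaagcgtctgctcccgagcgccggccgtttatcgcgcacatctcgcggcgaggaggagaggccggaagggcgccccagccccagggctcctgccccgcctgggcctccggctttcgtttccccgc
IRF9: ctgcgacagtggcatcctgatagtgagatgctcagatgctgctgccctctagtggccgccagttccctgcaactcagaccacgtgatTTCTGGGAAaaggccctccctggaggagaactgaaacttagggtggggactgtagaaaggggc
In GRCh38.p14 these stretches lie at chr10:89392473-89392622 (+ strand) for IFIT1, chr12:112938324-112938473 (+ strand) for OAS3, chr4:168318753-168318902 (- strand) for DDX60, chr3:122680689-122680838 (+ strand) for PARP14, chr1:89065209-89065358 (- strand) for GBP1, chr15:88638866-88639015 (+ strand) for ISG20, chr2:6865820-6865969 (- strand) for CMPK2 and chr14:24161115-24161264 (+ strand) for IRF9. The stretch of CMPK2 is from 1 of its 3 windows, and none of the 3 held either set of letters. DDX60 carried 2 ISRE matches and 1 GAS match, and IRF9 1 GAS match and no ISRE match.

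**Figure D1:**
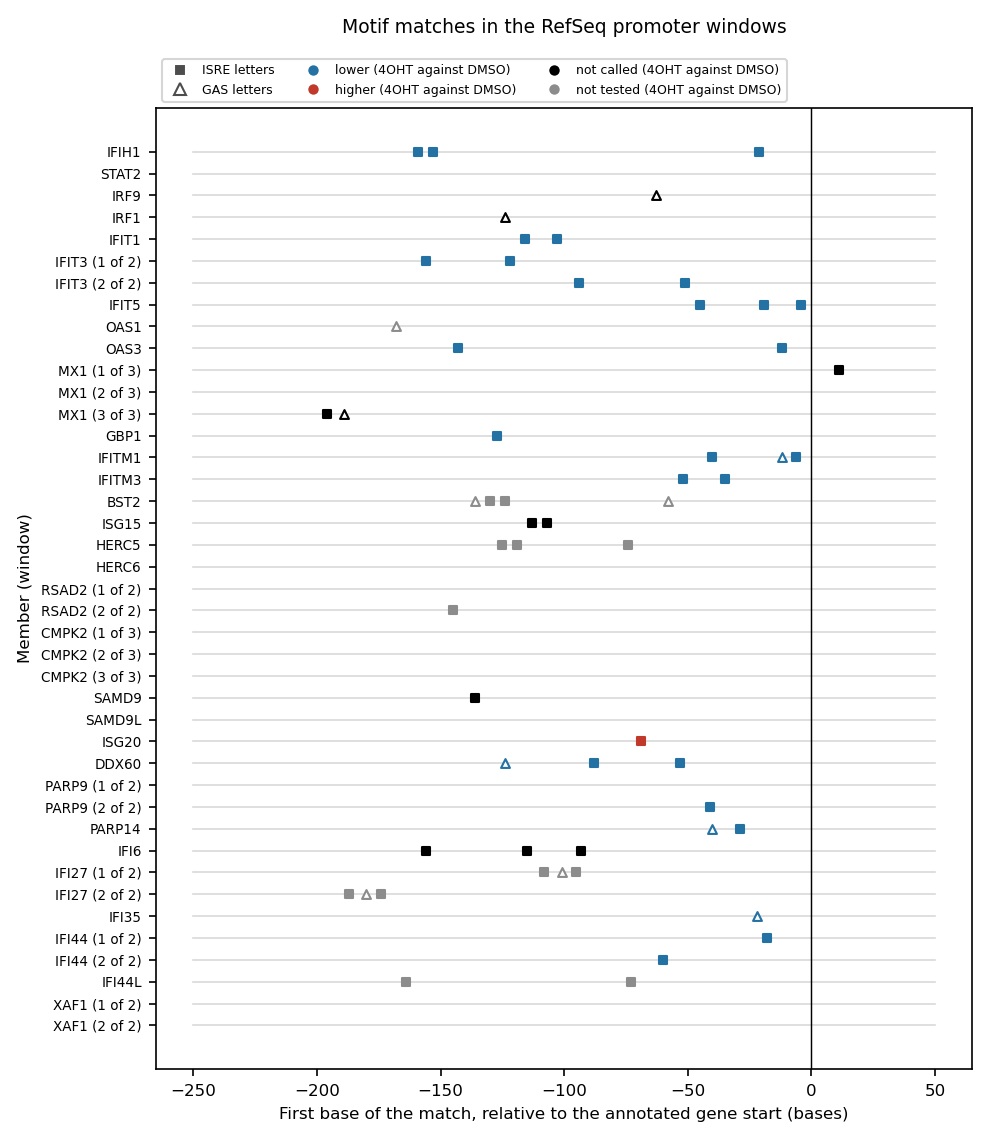
Positions of the ISRE letters (squares) and GAS letters (triangles) in the 41 promoter windows of 31 members; the x axis is the first base of the match relative to the annotated start, and colour gives the call in 4OHT against DMSO. ISRE letters appear in 26 of the 41 windows, in genes that fell, rose or were not called.

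Depth ran from 9451160 to 19291493 reads per library. It was 9451160 to 13101016 with DMSO, 10973618 to 15596086 with 4OHT and 14306171 to 19291493 with 4OHT+3DA. Raw reads, as given for genes with few reads, are therefore not directly comparable between groups. Levels are given as CPM, counts scaled by edgeR to the effective size of each library, with SD over 4 libraries. CPM is not scaled to gene length, so levels are compared between groups and not between genes. The lowest Spearman correlation across genes between replicates was 0.984, and library 31 lay farthest from its group (root mean square log2 deviation 0.434, against 0.2999 to 0.369 for the others). All 10 fibroblast markers passed the filter in these cells, and their summed level was 10592 to 11559 CPM with DMSO, 5709 to 6319 CPM with 4OHT and 5025 to 5251 CPM with 4OHT+3DA. The 15 immune markers summed to 7.85 to 11.1, 7.14 to 9.88 and 8.88 to 10.3 CPM, with CD3D, CD3E, NKG7 and TYROBP at 0 in every group, and the 3 tested markers were CSF1R (log2 fold change 1.49) and FCER1G (2.42), which rose with 4OHT, and CORO1A (-1.24), which fell. CSF1R had 26 reads over the DMSO libraries and 81 with 4OHT, and these groups overlapped. FCER1G had 20 and 119 reads and passed the filter through the groups given 4OHT, where it was higher. Of 5 plasmacytoid dendritic cell markers CLEC4C, LILRA4 and GZMB were at 0, IL3RA had 5, 17 and 5 reads, and TCF4, which other cells also express, fell with 4OHT (log2 fold change -0.35) and rose with 3DA added (0.43). Of 8 epithelial markers 5 were tested, and the summed level was 124 to 147, 55.1 to 59.9 and 41.9 to 53.7 CPM. Of 8 endothelial markers 4 were tested, with sums of 18.4 to 19.5, 22.7 to 27.3 and 15.4 to 19.1 CPM. The fibroblast and epithelial sums were lower in both groups given 4OHT, as most members were. With 4OHT, 7 of the 10 fibroblast markers fell, FAP rose (log2 fold change 0.54), and VIM (0.10) and PDGFRA (-0.11) were not called, and PDGFRA rose with 3DA added (0.90). Of the 5 tested epithelial markers 3 fell with 4OHT, among them KRT19 (log2 fold change -4.23), and KRT18 (-0.06) was not called. The part of these markers in the results was not tested.

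With 4OHT, most interferon response genes fell. Of the 31 tested members, 21 were lower than with DMSO, 3 were higher (CMPK2, ISG20 and USP18) and 7 were not called (edgeR's quasi-likelihood test, with an adjusted p under 0.05 by Benjamini-Hochberg). Over all 13248 genes tested, 25.5% were called lower, 26.5% higher and 52.0% in either direction (3378 lower and 3511 higher). Scaling by library totals moved this split to 4727 lower and 2385 higher, with an all-gene median of -0.17 and a members' median of -1.03. The members' median log2 fold change was -0.87, against -0.01 over all genes, and single members ran from -2.72 (OAS3) to 4.38 (CMPK2). All the reads assigned to the 40 members together came to 1128 to 1287 CPM with DMSO, 755 to 806 with 4OHT and 649 to 742 with 4OHT+3DA. Of these sums IFITM3 averaged 435, 315 and 246 CPM and IFITM2 209, 108 and 88.1 CPM, so the sums lean most on these genes. In 4OHT+3DA against 4OHT, 16 tested members had a positive and 15 a negative log2 fold change. Among the 24 calls of 4OHT against DMSO, that of ISG20 alone was lost in an alternative run at the same threshold that tested the gene. DHX58 was tested in 17 of the 19 such alternatives and called in each of these. In bulk RNA, fewer cells of a type and less RNA per cell cannot be told apart. Of the 31 tested members, 22 were above the filter's cutoff of 0.726 CPM in all 12 libraries. In 5 (DHX58, IRF9, GBP2, CMPK2 and XAF1) every library of some group was below it. DHX58 and GBP2 were fully above it only with DMSO and CMPK2 only with 4OHT. Each of these was tested only because of a group where it was higher. IRF9 and XAF1 were fully above it in no group, and passed through libraries of more than 1 group.

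Adding 3DA to 4OHT moved few members. Against 4OHT alone, 4 of 31 were higher (IRF9, GBP1, USP18 and SAMD9), 4 were lower (IRF1, IFIT3, IFITM2 and IFITM3) and 23 were not called. Over all genes tested the shares were 14.4% higher, 12.4% lower and 26.9% in either direction (1909 higher and 1649 lower, or 2535 and 1207 with library totals), so 8 of 31 members is near the background. The members' median was 0.02, against 0.01 over all genes. GBP1, USP18, IRF1 and IFITM3 were called in every alternative run, and the other 4 each lost the call in at least 1 of them. Without 4OHT library 23 or 4OHT+3DA library 31, 2 members were higher, and without 4OHT+3DA library 30, 2 were lower. This comparison and the one of 4OHT with DMSO share the 4OHT libraries, so values are given side by side for each gene with no test of their relation.

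Cells given 4OHT and 3DA differed from DMSO cells in 24 members, with 21 lower and 3 higher (CMPK2, ISG20 and USP18). Over all genes, 24.6% were lower, 27.0% higher and 51.5% called in either direction (3253 lower and 3572 higher, or 4035 and 2798 with library totals). The median of the members was -0.84, against 0.01 over all genes. DHX58, ISG20 and IFIT5 each lost this call in at least 1 alternative at the same threshold, IFIT5 with no filter on low counts (-0.24, adjusted p = 0.086). CMPK2 was tested in 18 of the 19 such alternatives and called in each of these. The largest fall among members was that of GBP2, at -3.40, and the largest rise that of CMPK2, at 3.62. Each rests on a group with few reads, 33 of GBP2 with 4OHT+3DA and 4 of CMPK2 with DMSO.

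**Figure D2:**
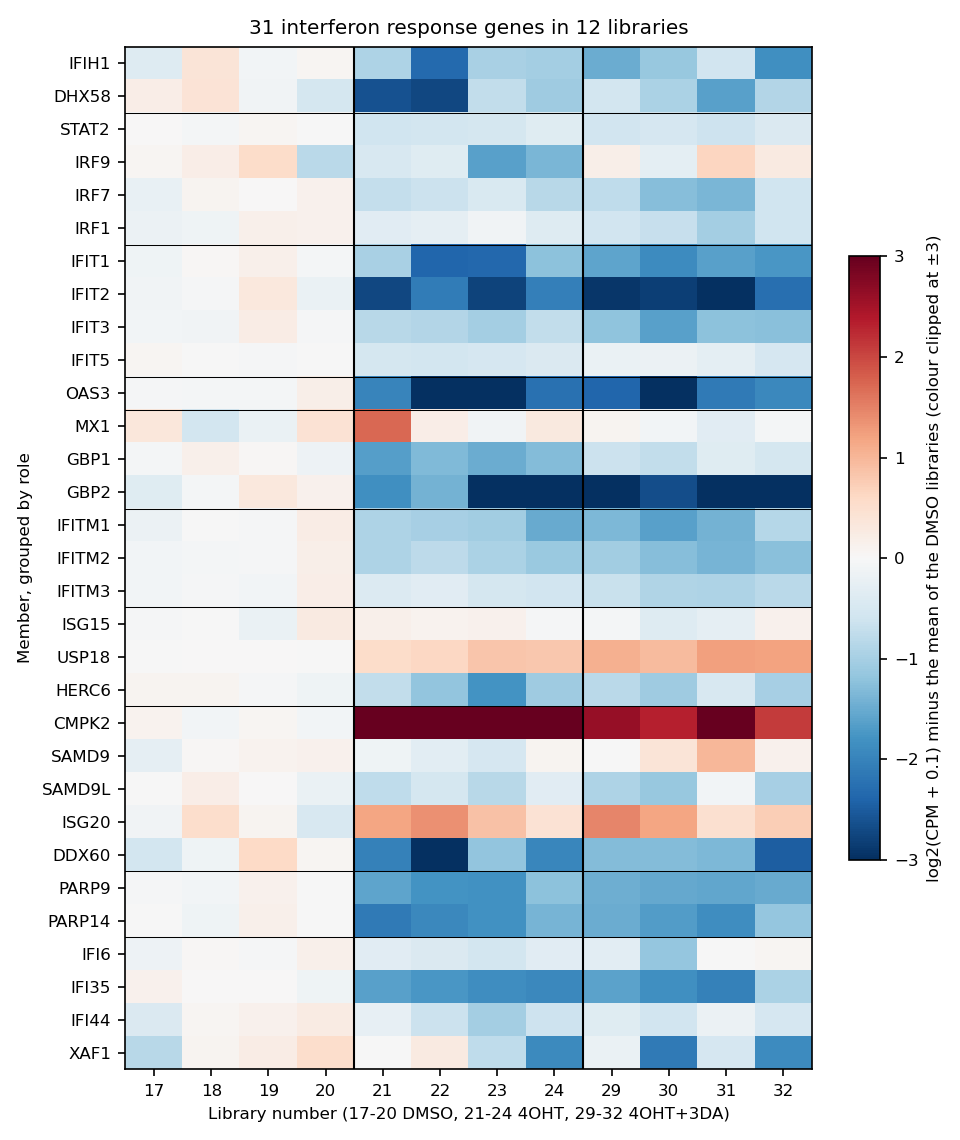
Heat map of the 31 tested members (rows, grouped by role) in the 12 libraries (columns); colour is log2(CPM + 0.1) minus the mean of the DMSO libraries, clipped at 3 in each direction. Most rows are below the DMSO mean in both groups given 4OHT, while CMPK2, USP18 and ISG20 are above it.

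The members that act as cytosolic sensors of double-stranded RNA, IFIH1 and DHX58, fell with 4OHT. Library values are given in the order of the library numbers. IFIH1 (ENSG00000115267), which encodes MDA5, gave 2.45, 4.20, 3.05 and 3.37 CPM in the DMSO libraries, 1.64, 0.559, 1.59 and 1.53 CPM in the 4OHT libraries and 1.08, 1.39, 2.13 and 0.8291 CPM in the 4OHT+3DA libraries. All 4 DMSO libraries lay above the 8 others, which overlapped each other, and library 22 was the lowest of all. IFIH1 fell by 1.30 on the log2 scale with 4OHT (SE 0.33, adjusted p = 0.00288, edgeR) and with 4OHT+3DA against DMSO by 1.26 (SE 0.32, adjusted p = 0.00281), while 4OHT+3DA against 4OHT gave 0.04 (SE 0.35, adjusted p = 0.946). DHX58 (ENSG00000108771), which encodes LGP2, a regulator of that sensing, gave 1.27, 1.501, 1.02 and 0.734 CPM in the DMSO libraries, 0.0967, 0.0798, 0.622 and 0.467 CPM in the 4OHT libraries and 0.720, 0.516, 0.288 and 0.553 CPM in the 4OHT+3DA libraries. Its DMSO libraries were above all others, at 10 to 20 reads each, and the groups given 4OHT overlapped. The 4OHT libraries held 1, 1, 9 and 7 reads of DHX58. It passed the filter through the DMSO group, where it was highest. DHX58 fell with 4OHT (log2 fold change -1.71, SE 0.50, adjusted p = 0.00738), and its change in 4OHT+3DA against 4OHT was 0.60 (SE 0.53, adjusted p = 0.43). Against DMSO, DHX58 with 4OHT+3DA was lower at -1.11 (SE 0.45, adjusted p = 0.0449), a call lost in 10 of the alternatives, among them DESeq2 (-1.13, adjusted p = 0.0521) and leaving out DMSO library 18 (-0.93, adjusted p = 0.145).

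Among the transcription factors of the response, STAT2 and IRF7 fell with 4OHT, and IRF9 and IRF1 moved with 3DA. IRF9 (ENSG00000213928), a DNA-binding subunit of the complex that holds STAT2, gave 0.882, 0.976, 1.29 and 0.440 CPM in the DMSO libraries, 0.580, 0.639, 0.207 and 0.267 CPM in the 4OHT libraries and 0.961, 0.671, 1.38 and 1.04 CPM in the 4OHT+3DA libraries. The 4OHT+3DA libraries lay above all 4OHT libraries, and the DMSO libraries overlapped both groups. Exons of IRF9 overlap those of AL136295.5 on the same strand, so its counts are uncertain. Over the 12 libraries AL136295.5 had 29 reads and IRF9 had 131. With 4OHT against DMSO the change was -1.10 (SE 0.47, adjusted p = 0.0555), and 4OHT+3DA raised IRF9 over 4OHT (log2 fold change 1.29, SE 0.44, adjusted p = 0.0372). These were 3 to 24 reads per library, and the second call was lost with no filter on low counts (1.31, adjusted p = 0.0652) and without 4OHT library 23 (1.05, adjusted p = 0.12) or 24 (1.11, adjusted p = 0.11), or 4OHT+3DA library 29 (1.31, adjusted p = 0.0503), 31 (1.10, adjusted p = 0.105) or 32 (1.28, adjusted p = 0.0541). STAT2, which brings the activation domain to that complex, averaged 112 ± 3.78 CPM with DMSO, 79.0 ± 5.79 CPM with 4OHT and 77.9 ± 4.53 CPM with 4OHT+3DA. STAT2 fell with 4OHT (log2 fold change -0.51, SE 0.07, adjusted p = 9.05e-06) and stood at -0.02 (SE 0.07) with 3DA added. IRF7, which amplifies interferon transcription, averaged 4.04 ± 0.432 CPM with DMSO, 2.52 ± 0.294 CPM with 4OHT and 2.02 ± 0.553 CPM with 4OHT+3DA, and it fell with 4OHT (log2 fold change -0.69, SE 0.22, adjusted p = 0.0145) and was not called with 3DA added at -0.33 (SE 0.23, adjusted p = 0.301). IRF1, an early activator of interferon-responsive genes, averaged 26.7 ± 3.19 CPM with DMSO, 21.99 ± 1.89 CPM with 4OHT and 16.2 ± 2.15 CPM with 4OHT+3DA. IRF1 missed the threshold with 4OHT at -0.28 (SE 0.12, adjusted p = 0.0529) and fell when 3DA was added (log2 fold change -0.45, SE 0.12, adjusted p = 0.00954), with no overlap between the 4OHT and 4OHT+3DA libraries. In 8 of the alternatives, DESeq2 among them (-0.28, adjusted p = 0.0432), IRF1 was called lower with 4OHT as well.

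All 4 genes of the IFIT family, whose proteins bind viral RNA ends and block translation, fell with 4OHT. IFIT1 (ENSG00000185745), with 2 ISRE matches in the stretch shown, gave 12.6, 14.1, 15.3 and 13.2 CPM in the DMSO libraries, 6.96, 2.55, 2.63 and 5.80 CPM in the 4OHT libraries and 4.56, 3.66, 4.38 and 4.01 CPM in the 4OHT+3DA libraries. Library 21 was the highest of the 4OHT group, yet below every DMSO library, and both groups given 4OHT overlapped. IFIT1 was 3.12-fold lower with 4OHT (log2 fold change -1.64, SE 0.24, adjusted p = 9.13e-06) and did not move detectably with 3DA, at -0.09 (SE 0.25, adjusted p = 0.814). IFIT2 (ENSG00000119922) gave 12.4, 13.1, 16.8 and 11.7 CPM in the DMSO libraries, 1.93, 3.03, 1.87 and 3.14 CPM in the 4OHT libraries and 1.68, 1.81, 1.10 and 2.69 CPM in the 4OHT+3DA libraries. Its DMSO libraries lay far above the others, and IFIT2 was 5.36-fold lower with 4OHT (log2 fold change -2.42, SE 0.23, adjusted p = 3.51e-08). Adding 3DA gave -0.48 (SE 0.26, adjusted p = 0.189). Exons of IFIT2 overlap those of LIPA on the opposite strand, and the kit does not mark strand, so its counts are uncertain. IFIT3 averaged 21.96 ± 2.45 CPM with DMSO, 11.99 ± 0.931 CPM with 4OHT and 8.71 ± 1.17 CPM with 4OHT+3DA, with no overlap between any pair of groups. IFIT3 fell with 4OHT (log2 fold change -0.87, SE 0.13, adjusted p = 9.3e-06) and again with 3DA added (log2 fold change -0.46, SE 0.13, adjusted p = 0.0129), the latter call lost without library 30 (-0.36, adjusted p = 0.0543). IFIT5 averaged 44.5 ± 1.44 CPM with DMSO, 31.4 ± 1.21 CPM with 4OHT and 36.5 ± 3.68 CPM with 4OHT+3DA, fell with 4OHT (log2 fold change -0.50, SE 0.09, adjusted p = 8.02e-05) and stood at 0.22 (SE 0.09, adjusted p = 0.0694) with 3DA added.

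Of the OAS family, which makes the 2-5A second messenger that activates RNase L, only OAS3 had enough reads to be tested. OAS3 (ENSG00000111331) gave 12.5, 12.3, 12.3 and 14.5 CPM in the DMSO libraries, 3.19, 1.44, 0.691 and 2.67 CPM in the 4OHT libraries and 2.40, 1.497, 2.88 and 3.32 CPM in the 4OHT+3DA libraries. The 4 DMSO libraries stood far above the 8 others, which overlapped each other. OAS3 was 6.59-fold lower with 4OHT (log2 fold change -2.72, SE 0.29, adjusted p = 2.29e-07), the largest fall among the members, and 5.16-fold lower with 4OHT+3DA against DMSO (log2 fold change -2.37, SE 0.28, adjusted p = 7.03e-07). The change with 3DA added was 0.35 (SE 0.33, adjusted p = 0.453).

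Of the dynamin-like GTPases, GBP1 and GBP2 fell with 4OHT, MX1 was not called and MX2 was not tested. GBP1 (ENSG00000117228), a guanylate-binding protein that attacks intracellular pathogens, gave 39.99, 46.0, 42.7 and 37.4 CPM in the DMSO libraries, 13.1, 16.6, 14.6 and 16.6 CPM in the 4OHT libraries and 26.4, 24.7, 31.9 and 28.7 CPM in the 4OHT+3DA libraries. No groups overlapped: the DMSO libraries were highest, the 4OHT+3DA libraries intermediate and the 4OHT libraries lowest. GBP1 was 2.72-fold lower with 4OHT (log2 fold change -1.44, SE 0.11, adjusted p = 2.03e-09), rose 1.83-fold when 3DA was added (log2 fold change 0.87, SE 0.11, adjusted p = 1.22e-05) and stayed below DMSO there (log2 fold change -0.57, SE 0.11, adjusted p = 0.000157). GBP2 (ENSG00000162645), of the same family, gave 3.92, 4.88, 6.37 and 5.58 CPM in the DMSO libraries, 1.35, 1.84, 0.484 and 0.534 CPM in the 4OHT libraries and 0.540, 0.722, 0.115 and 0.553 CPM in the 4OHT+3DA libraries. Its DMSO libraries were above all others, and the groups given 4OHT overlapped. The 4OHT+3DA libraries held only 2 to 14 reads of GBP2 each. It passed the filter through the DMSO group, where it was highest. GBP2 fell with 4OHT (log2 fold change -2.34, SE 0.38, adjusted p = 3.41e-05) and was 10.5-fold lower with 4OHT+3DA against DMSO (log2 fold change -3.40, SE 0.40, adjusted p = 9.09e-07), with -1.05 (SE 0.48, adjusted p = 0.109) between the groups given 4OHT. MX1, which traps viral nucleocapsids, averaged 2.24 ± 0.720 CPM with DMSO, 3.62 ± 2.4998 CPM with 4OHT and 2.01 ± 0.253 CPM with 4OHT+3DA with no call in any comparison. Library 21 gave 7.35 CPM of MX1 and the other 4OHT libraries 2.004 to 2.67 CPM.

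The IFITM proteins, which sit in membranes and hinder viral entry, fell together with 4OHT. IFITM1 (ENSG00000185885) gave 14.8, 16.6, 16.3 and 19.5 CPM in the DMSO libraries, 8.70, 8.38, 8.08 and 5.80 CPM in the 4OHT libraries and 6.48, 5.37, 6.17 and 9.19 CPM in the 4OHT+3DA libraries. Every DMSO library was above every other library, and the groups given 4OHT overlapped. IFITM1 fell with 4OHT (log2 fold change -1.13, SE 0.17, adjusted p = 1.37e-05), and 3DA added to 4OHT gave -0.19 (SE 0.17, adjusted p = 0.451). IFITM2 averaged 209 ± 17.9 CPM with DMSO, 108 ± 10.4 CPM with 4OHT and 88.1 ± 9.36 CPM with 4OHT+3DA, and it fell with 4OHT (log2 fold change -0.95, SE 0.09, adjusted p = 3.38e-08). Adding 3DA lowered IFITM2 a little further (log2 fold change -0.30, SE 0.09, adjusted p = 0.0188), with overlapping libraries, and that call was lost without 4OHT library 22 (-0.24, adjusted p = 0.0802) or 4OHT+3DA library 30 (-0.28, adjusted p = 0.0559). IFITM3 averaged 435 ± 41.6 CPM with DMSO, 315 ± 21.7 CPM with 4OHT and 246 ± 21.3 CPM with 4OHT+3DA, with no overlap between any pair of groups, and fell both with 4OHT (log2 fold change -0.47, SE 0.08, adjusted p = 6.27e-05) and with 3DA added (log2 fold change -0.36, SE 0.08, adjusted p = 0.00273). The 3 genes are close in sequence and IFITM1 and IFITM2 share exon positions, so the division of reads among them is uncertain.

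ISG15, the ubiquitin-like protein that the response attaches to other proteins, was called in none of the comparisons. It averaged 63.1 ± 8.67 CPM with DMSO, 66.8 ± 3.77 CPM with 4OHT and 57.2 ± 8.99 CPM with 4OHT+3DA, and its 3 groups overlapped in every pair. With 4OHT against DMSO, ISG15 stood at 0.08 (SE 0.11, adjusted p = 0.567), and with 3DA added at -0.22 (SE 0.11, adjusted p = 0.134). USP18, the protease that removes ISG15 and also restrains the receptor, was the one member that rose in all 3 comparisons. It averaged 13.5 ± 0.146 CPM with DMSO, 22.3 ± 2.22 CPM with 4OHT and 29.4 ± 2.71 CPM with 4OHT+3DA with no overlap between groups, and rose with 4OHT (log2 fold change 0.72, SE 0.11, adjusted p = 1.23e-05) and again with 3DA (log2 fold change 0.40, SE 0.10, adjusted p = 0.00666). USP41, a near-identical copy, had 1 to 11 reads per library, so some reads of USP18 could belong to it. HERC6 (ENSG00000138642), a ligase of the HERC family, gave 6.08, 6.08, 5.63 and 5.21 CPM in the DMSO libraries, 3.39, 2.47, 1.59 and 2.67 CPM in the 4OHT libraries and 3.24, 2.68, 4.09 and 2.83 CPM in the 4OHT+3DA libraries. The DMSO libraries of HERC6 exceeded all others. It fell with 4OHT (log2 fold change -1.20, SE 0.22, adjusted p = 0.000145) and stood at 0.36 (SE 0.23, adjusted p = 0.246) with 3DA added.

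Effectors that act on nucleotides and RNA moved in both directions. CMPK2 (ENSG00000134326), a mitochondrial nucleotide kinase, gave 0.0980, 0.0751, 0.0924 and 0.0734 CPM in the DMSO libraries, 2.03, 1.68, 2.21 and 1.73 CPM in the 4OHT libraries and 1.02, 0.826, 1.96 and 0.691 CPM in the 4OHT+3DA libraries. Each DMSO library held 1 read of it, against 21 to 32 reads with 4OHT and 10 to 34 with 4OHT+3DA, so its DMSO level is set by 4 reads. CMPK2 rose with 4OHT (log2 fold change 4.38, SE 0.52, adjusted p = 8.06e-07) and with 4OHT+3DA against DMSO (log2 fold change 3.62, SE 0.55, adjusted p = 1.79e-05), and 3DA against 4OHT gave -0.75 (SE 0.32, adjusted p = 0.0872). Without library 31, which was the highest of its group, that last difference was -1.16 (adjusted p = 0.0134). Exons of CMPK2 overlap those of RSAD2 on the opposite strand, and RSAD2 had 6, 12 and 9 reads in the 3 groups. ISG20 (ENSG00000172183), an exonuclease that degrades RNA, gave 0.882, 1.43, 1.02 and 0.660 CPM in the DMSO libraries, 2.32, 2.63, 1.87 and 1.33 CPM in the 4OHT libraries and 2.82, 2.32, 1.38 and 1.66 CPM in the 4OHT+3DA libraries. All pairs of its groups overlapped, with DMSO library 18 above the lowest 4OHT and 4OHT+3DA libraries. ISG20 rose with 4OHT (log2 fold change 1.01, SE 0.34, adjusted p = 0.019) and with 4OHT+3DA against DMSO (log2 fold change 1.03, SE 0.33, adjusted p = 0.0145). The first call was lost without DMSO library 20 (0.82, adjusted p = 0.0689) or 4OHT library 22 (0.86, adjusted p = 0.0636), and the second without DMSO library 20 (0.86, adjusted p = 0.0558) or 4OHT+3DA library 29 (0.85, adjusted p = 0.0534).

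DDX60 (ENSG00000137628), a helicase that promotes RNA sensing, gave 3.72, 5.03, 8.31 and 5.72 CPM in the DMSO libraries, 1.26, 0.319, 2.35 and 1.33 CPM in the 4OHT libraries and 2.16, 2.17, 2.07 and 0.898 CPM in the 4OHT+3DA libraries. Its DMSO libraries were above all others, and library 32 was the lowest of the 4OHT+3DA group. DDX60 fell with 4OHT (log2 fold change -2.08, SE 0.37, adjusted p = 0.000114), and adding 3DA gave 0.46 (SE 0.40, adjusted p = 0.421). The paralogues SAMD9 and SAMD9L, which restrict poxviruses, are given side by side. SAMD9 averaged 11.8 ± 1.47 CPM with DMSO, 10.2 ± 1.795 CPM with 4OHT and 15.9 ± 5.29 CPM with 4OHT+3DA and was called only with 3DA added (log2 fold change 0.63, SE 0.19, adjusted p = 0.0181), with overlapping libraries. That call was lost with a correction for GC content (0.23, adjusted p = 0.213) and without 4OHT library 22 (0.60, adjusted p = 0.0533) or 23 (0.54, adjusted p = 0.0667) or 4OHT+3DA library 31 (0.39, adjusted p = 0.0644). SAMD9L averaged 15.98 ± 1.7999 CPM with DMSO, 10.4 ± 1.69 CPM with 4OHT and 9.61 ± 3.58 CPM with 4OHT+3DA, fell with 4OHT (log2 fold change -0.61, SE 0.19, adjusted p = 0.0126) and stood at -0.12 (SE 0.19, adjusted p = 0.679) with 3DA added, or at -0.42 (adjusted p = 0.0427) without library 31.

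Both PARP family members fell with 4OHT and stayed low with 3DA. PARP9 (ENSG00000138496), which acts with the ligase DTX3L, gave 18.8, 18.02, 21.1 and 19.002 CPM in the DMSO libraries, 6.38, 5.43, 5.39 and 8.14 CPM in the 4OHT libraries and 6.84, 6.55, 6.46 and 6.70 CPM in the 4OHT+3DA libraries. The DMSO libraries were all above the 8 others. PARP9 was 3.02-fold lower with 4OHT (log2 fold change -1.60, SE 0.14, adjusted p = 1.12e-08) and stood at 0.06 (SE 0.14, adjusted p = 0.78) with 3DA added. Exons of PARP9 overlap those of DTX3L on the opposite strand, so reads from the shared stretch cannot be told apart. PARP14 (ENSG00000173193), an ADP-ribosyltransferase, gave 26.9, 24.5, 30.02 and 26.7 CPM in the DMSO libraries, 6.09, 7.02, 7.601 and 10.1 CPM in the 4OHT libraries and 9.49, 8.41, 7.38 and 11.95 CPM in the 4OHT+3DA libraries. Here too each DMSO library exceeded every other. PARP14 was 3.46-fold lower with 4OHT (log2 fold change -1.79, SE 0.16, adjusted p = 1.53e-08), and the difference with 3DA added was 0.25 (SE 0.16, adjusted p = 0.276).

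Among the IFI genes, IFI35 (ENSG00000068079), which forms a complex with NMI, gave 20.5, 19.1, 18.8 and 17.1 CPM in the DMSO libraries, 5.997, 5.51, 5.11 and 4.87 CPM in the 4OHT libraries and 6.12, 5.21, 4.55 and 9.74 CPM in the 4OHT+3DA libraries. Its DMSO libraries exceeded all others, and the groups given 4OHT overlapped. IFI35 was 3.52-fold lower with 4OHT (log2 fold change -1.82, SE 0.19, adjusted p = 1.14e-07), with 0.25 (SE 0.19, adjusted p = 0.368) when 3DA was added. IFI44 averaged 6.24 ± 1.20 CPM with DMSO, 3.99 ± 0.883 CPM with 4OHT and 4.64 ± 0.579 CPM with 4OHT+3DA and fell with 4OHT (log2 fold change -0.67, SE 0.20, adjusted p = 0.0082), although 1 or more libraries overlapped. With 4OHT+3DA against DMSO, IFI44 missed the threshold at -0.43 (SE 0.19, adjusted p = 0.0639). It was called lower in 4 alternatives: library totals (adjusted p = 0.0227), the GC correction (adjusted p = 0.00777), and without DMSO library 17 (adjusted p = 0.0226) or 4OHT+3DA library 31 (adjusted p = 0.0387). IFI6, a mitochondrial protein linked to cell survival, averaged 32.2 ± 2.93 CPM with DMSO, 24.03 ± 1.74 CPM with 4OHT and 26.2 ± 8.63 CPM with 4OHT+3DA and was called in no comparison, with -0.42 (SE 0.18, adjusted p = 0.0537) for 4OHT against DMSO. In 7 of the alternatives it was called lower, and its DMSO and 4OHT libraries did not overlap. XAF1, which binds and inhibits XIAP, averaged 0.8288 ± 0.326 CPM with DMSO, 0.570 ± 0.368 CPM with 4OHT and 0.355 ± 0.277 CPM with 4OHT+3DA and was called in none of the comparisons.

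**Figure D3:**
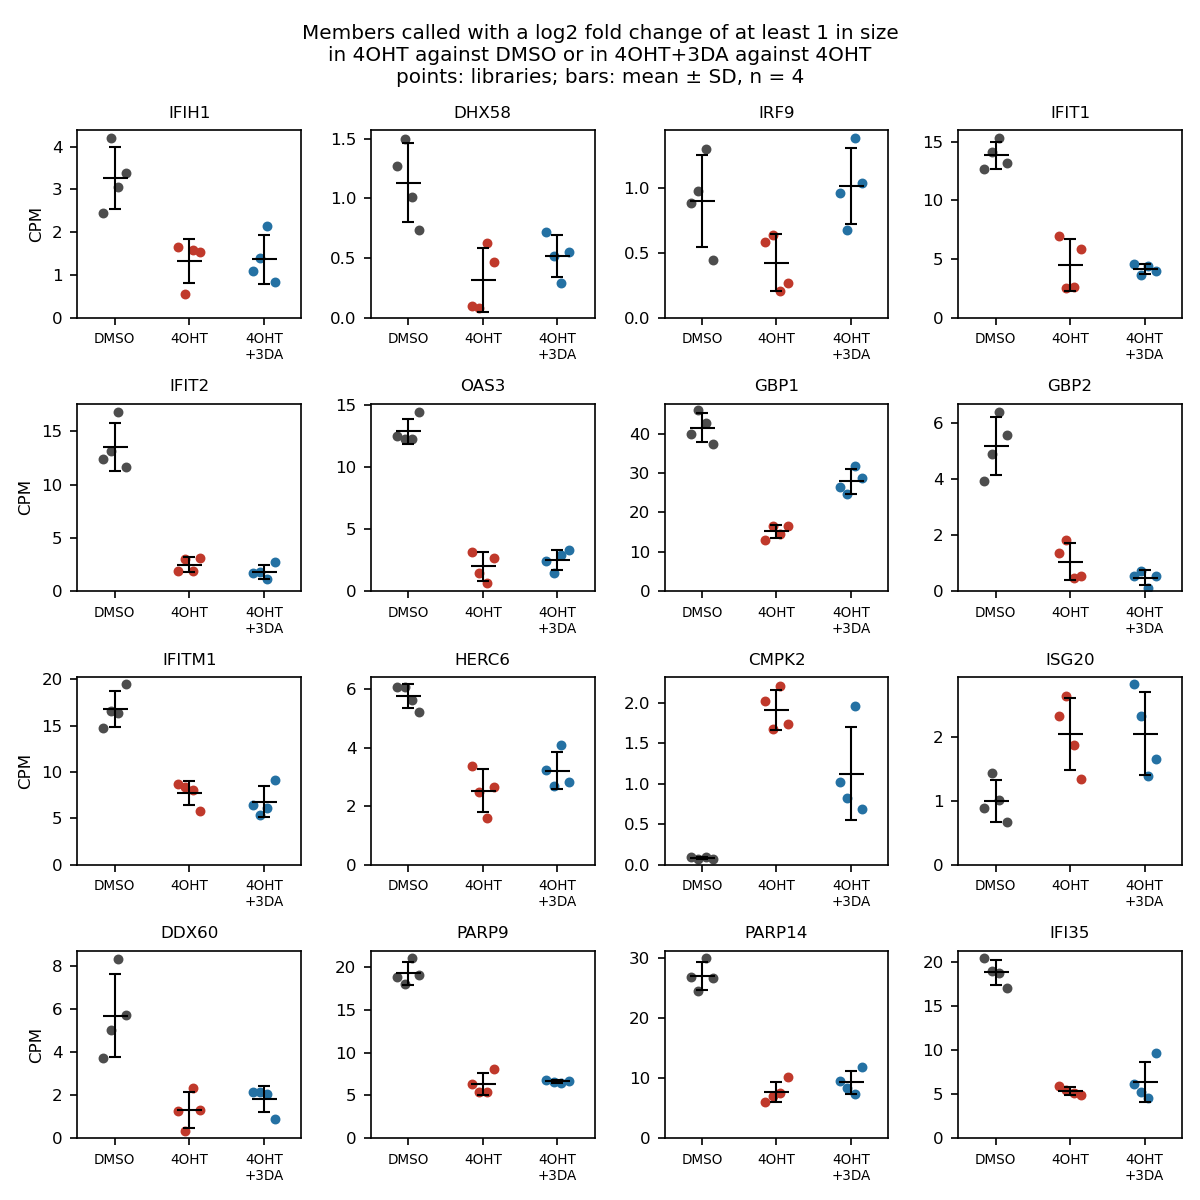
CPM (y axis, from 0) of the 16 members called with a log2 fold change of at least 1 in size in 4OHT against DMSO or in 4OHT+3DA against 4OHT; points are libraries, and bars are the mean and SD of 4. In most panels the DMSO points lie above the others; CMPK2 and ISG20 are higher with 4OHT, and IRF9 and GBP1 are higher with 4OHT+3DA than with 4OHT.

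**Figure D4:**
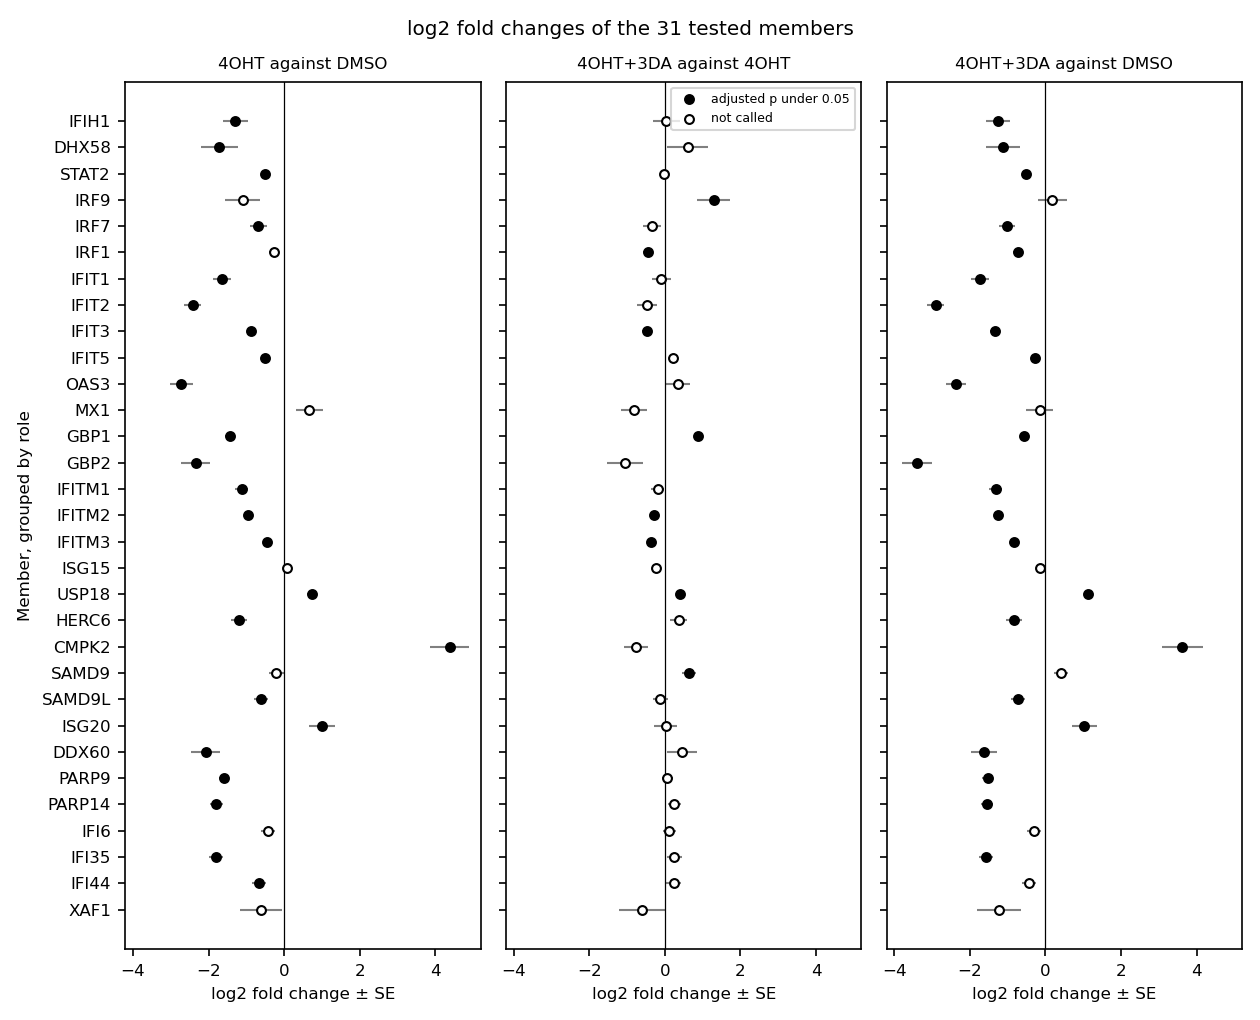
Log2 fold changes (x axis, with SE) of the 31 tested members in the 3 comparisons; filled points passed an adjusted p of 0.05. In the comparisons with DMSO, 21 of the 31 members were called lower, and in 4OHT+3DA against 4OHT 23 were not called.

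The 9 members that did not pass the filter were OAS1, OAS2, OASL, MX2, BST2, HERC5, RSAD2, IFI27 and IFI44L, with 2 to 53 reads per group. With no filter, 3 of them were called in 1 comparison each. OAS1, an enzyme of the 2-5A pathway, had 2 reads over the DMSO libraries, 25 with 4OHT and 11 with 4OHT+3DA, and was higher with 4OHT (3.32, SE 1.02, adjusted p = 0.00621). Its 4OHT libraries held 11, 0, 4 and 10 reads. OASL, a relative without that enzyme activity, had 7, 34 and 23 reads and was also higher with 4OHT (2.10, SE 0.74, adjusted p = 0.0218). HERC5, the ligase that attaches ISG15, had 32, 23 and 9 reads and was lower with 4OHT+3DA against DMSO (-2.20, SE 0.71, adjusted p = 0.00976). For each of these 3 genes the libraries of the groups compared overlapped. The other 6 were not called even so, with SEs of up to 1.04 on the log2 scale.

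The rest of the pathway was described with lists of 129 further genes, of which 84 were tested. In 4OHT against DMSO 38 were lower and 19 higher, with a median log2 fold change of -0.19. These are 45.2% and 22.6% of those tested, against 25.5% and 26.5% over all genes. In 4OHT+3DA against 4OHT 15 were lower and 7 higher (median -0.06, with 7 lower without 4OHT library 24 and 9 without 4OHT library 21 or 4OHT+3DA library 30), and in 4OHT+3DA against DMSO 40 were lower and 14 higher (median -0.24). With 3DA added the shares were 17.9% lower and 8.33% higher, against 12.4% and 14.4% over all genes. In 4OHT+3DA against DMSO they were 47.6% lower and 16.7% higher, against 24.6% and 27.0%. IFI16 and SOCS1 each stand in more than 1 list.

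Hardly any interferon mRNA was found. None of 21 interferon genes passed the filter, and 18 had no read in any of the 12 libraries. IFNB1, the type I interferon that fibroblasts are known to make, had 1 read over the DMSO libraries, 0 with 4OHT and 1 with 4OHT+3DA, where a count of 0 allows up to 0.0573 CPM over the 4OHT group (3 reads, counting error only). IFNA1 had 0, 8 and 1 reads. IFNE, an epithelial type I interferon and the one ligand with more reads, had 5, 47 and 51 reads, or 0.103 ± 0.0329 CPM with DMSO, 0.917 ± 0.284 CPM with 4OHT and 0.7497 ± 0.198 CPM with 4OHT+3DA. Its DMSO libraries lay below all others, with no test at these counts. Of 6 receptor genes 5 were tested. IFNAR1, the signalling chain of the type I receptor, averaged 66.5 ± 6.54 CPM with DMSO, 81.3 ± 5.87 CPM with 4OHT and 107 ± 39.6 CPM with 4OHT+3DA. It was not called with 4OHT at 0.29 (SE 0.16, adjusted p = 0.15), but was in 3 alternatives, or with 3DA added at 0.40 (SE 0.16, adjusted p = 0.0728), but was in 5 alternatives, among them no filter on low counts (0.43, adjusted p = 3.42e-05). IFNAR1 was higher with 4OHT+3DA than with DMSO at 0.69 (SE 0.16, adjusted p = 0.00156). Without library 31 these values were 0.29 (adjusted p = 0.00481), 0.12 (adjusted p = 0.348) and 0.41 (adjusted p = 0.000427). IFNAR2, the ligand-binding chain, was called in no comparison, with 0.20 (SE 0.14, adjusted p = 0.242) for 4OHT against DMSO and -0.12 (SE 0.14, adjusted p = 0.557) for 3DA added. IFNGR1, a chain of the interferon gamma receptor, rose with 4OHT at 0.50 (SE 0.09, adjusted p = 7.79e-05).

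Of 10 tested JAK-STAT genes, 5 were lower and 3 higher with 4OHT, and 3 were lower with 3DA added. The shares over all genes were 25.5% lower and 26.5% higher with 4OHT and 12.4% lower with 3DA. The receptor kinases JAK1 and TYK2 fell slightly with 4OHT, at -0.19 (SE 0.06, adjusted p = 0.0191) and -0.29 (SE 0.10, adjusted p = 0.0172). Neither call held throughout: JAK1 lost it with no filter on low counts (-0.18) and without DMSO library 17 or 4OHT library 22 (-0.17 each), and TYK2 without DMSO library 17 (-0.21) or 4OHT library 24 (-0.26). STAT4, mostly a lymphocyte factor, rose with 4OHT at 1.70 (SE 0.45, adjusted p = 0.00343) from a low level, and IRF2, a repressor that competes with IRF1, fell at -0.65 (SE 0.16, adjusted p = 0.00161). With 3DA added, STAT4 (-1.26, SE 0.40), STAT6 (-0.27, SE 0.08) and STAT3 (-0.26, SE 0.07) fell, but STAT4 lost the call in 6 alternatives, STAT6 in 7, and STAT3 with no filter on low counts (-0.23).

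Of 12 tested negative regulators, 4 were lower and 3 higher with 4OHT, and 3 were lower and 1 higher with 3DA added. The counts with 4OHT are near the shares over all genes, 25.5% lower and 26.5% higher. With 3DA added 25% were lower and 8.33% higher, against 12.4% and 14.4% over all genes. SOCS1, the inhibitor of JAK kinases that interferon induces, averaged 3.75 ± 0.503 CPM with DMSO, 0.363 ± 0.174 CPM with 4OHT and 0.489 ± 0.229 CPM with 4OHT+3DA and fell with 4OHT at -3.28 (SE 0.36, adjusted p = 2.52e-07). Both means with 4OHT were below the filter's cutoff of 0.726 CPM. SOCS1 passed the filter mainly through the DMSO group, where it was highest, so the size of its fall rests on few reads. SOCS2, which restrains growth hormone signalling, fell with 4OHT at -1.68 (SE 0.15, adjusted p = 1.56e-08) and rose with 3DA added at 1.62 (SE 0.15, adjusted p = 1.86e-07), to a level not called different from DMSO at -0.05 (SE 0.14, adjusted p = 0.772). PTPN1, a phosphatase of JAK2 and TYK2, went the other way, with 0.87 (SE 0.07, adjusted p = 3.75e-09) and then -0.32 (SE 0.07, adjusted p = 0.00197). SOCS3, an inhibitor of gp130 signalling, fell with 3DA added at -0.51 (SE 0.15, adjusted p = 0.0183), a call lost without 4OHT library 22 (-0.44) or 24 (-0.39).

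Of 17 tested genes that sense nucleic acids or induce interferon, 6 were higher (35.3%) and 4 lower (23.5%) with 4OHT, near the 26.5% and 25.5% over all genes. The DNA sensor CGAS averaged 5.67 ± 1.68 CPM with DMSO, 2.99 ± 0.695 CPM with 4OHT and 4.04 ± 1.07 CPM with 4OHT+3DA and fell with 4OHT at -0.92 (SE 0.24, adjusted p = 0.00396). STING1, its adaptor, averaged 42.5 ± 2.87 CPM with DMSO, 18.4 ± 0.641 CPM with 4OHT and 16.99 ± 2.46 CPM with 4OHT+3DA and fell at -1.21 (SE 0.11, adjusted p = 1.38e-08), with -0.12 (SE 0.11, adjusted p = 0.449) when 3DA was added. RIGI, the third RNA sensor beside IFIH1 and DHX58, rose with 4OHT at 0.33 (SE 0.09, adjusted p = 0.00364), and IRF3, which switches on interferon genes, at 0.28 (SE 0.10, adjusted p = 0.0238). Neither rise passed when counts were scaled to library totals (0.17 and 0.12), and that of IRF3 was also lost without DMSO library 18 (0.25) or 19 (0.26) or 4OHT library 23 (0.24). TRIM25, the ligase that activates RIGI, fell at -0.46 (SE 0.09, adjusted p = 0.000359). With 3DA added 3 of 17 fell (17.6%) and 1 rose (5.88%), against 12.4% and 14.4% over all genes. Those that fell were the adaptors TRAF3 (-0.49, SE 0.15), TRAF6 (-0.38, SE 0.11) and TICAM1 (-0.37, SE 0.12), each with a call lost in at least 2 alternatives.

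Further interferon-stimulated genes also fell more often than they rose with 4OHT. Their list, like the members, was chosen with earlier results of these data known, so its counts are no independent support. Of 38 tested, 24 were lower and 5 higher with 4OHT (median -0.56), 4 lower and 5 higher with 3DA added (median -0.05), and 26 lower and 4 higher with 4OHT+3DA against DMSO (median -0.62). With 4OHT these are 63.2% lower and 13.2% higher, against 25.5% and 26.5% over all genes. With 3DA added they are 10.5% lower and 13.2% higher, near the 12.4% and 14.4% over all genes. With 4OHT+3DA against DMSO they are 68.4% lower and 10.5% higher, against 24.6% and 27.0%. EPSTI1 fell with 4OHT at -2.67 (SE 0.45, adjusted p = 5.24e-05), APOL1, a trypanosome-lysing lipoprotein, at -2.46 (SE 0.50, adjusted p = 0.000427), and NMI, the partner of IFI35, at -1.96 (SE 0.27, adjusted p = 5.74e-06). With 3DA added, PNPT1, a mitochondrial RNA exonuclease, rose at 0.62 (SE 0.09, adjusted p = 2.98e-05), TRIM14, an adaptor of antiviral signalling, at 0.52 (SE 0.14, adjusted p = 0.0115), and UBE2L6, the conjugating enzyme for ISG15, at 0.50 (SE 0.09, adjusted p = 0.000263). Of 5 tested interferon gamma targets, 3 were higher (60%) and 2 lower (40%) with 4OHT, against 26.5% and 25.5% over all genes. SECTM1 fell at -2.43 (SE 0.62, adjusted p = 0.00292) and CXCL10, a chemokine for T cells, rose at 1.71 (SE 0.45, adjusted p = 0.00345) from 0.345 ± 0.220 CPM. With 3DA added, CXCL10 fell at -1.29 (SE 0.40, adjusted p = 0.0233), a call lost with no filter (-1.25) and without 4OHT library 22 (-1.27) or 24 (-1.01) or 4OHT+3DA library 30 (-1.16). ICAM1, an adhesion molecule, averaged 23.3 ± 2.23 CPM with DMSO, 56.1 ± 8.34 CPM with 4OHT and 10.8 ± 1.70 CPM with 4OHT+3DA, and fell with 3DA added at -2.39 (SE 0.13, adjusted p = 2.81e-10).

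**Figure D5:**
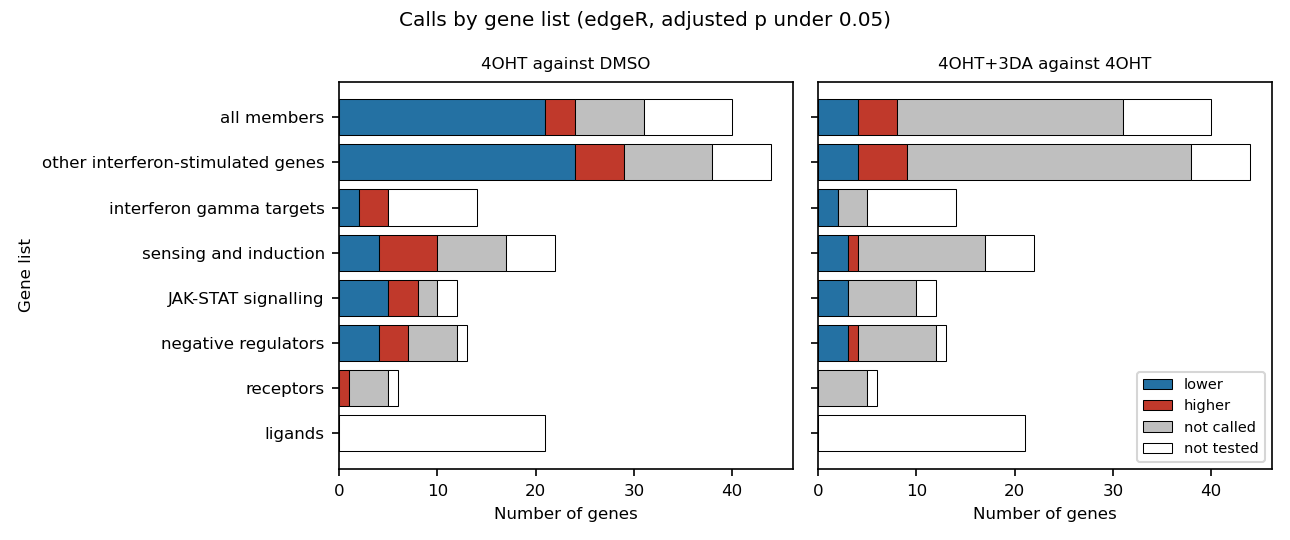
Number of genes (x axis) called lower, higher, not called or not tested in the members and in 7 lists of pathway genes, for 4OHT against DMSO and 4OHT+3DA against 4OHT. Falls outnumber rises with 4OHT in the members (21 against 3) and in the other interferon-stimulated genes (24 against 5), and none of the 21 ligands was tested.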

How the data were processed

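RNA of IMR90 ER:RAS fibroblasts was made into 12 libraries, 4 for each of DMSO, 4OHT and 4OHT+3DA, by Smart-Seq2 with a Nextera XT kit, which the labels' protocols name. The authors deposited 1 table of raw read counts per gene, not normalised, in which every column matched a sample title. Per the submitters' processing notes, the tools were CASAVA 1.8.2, TopHat2 2.0.11 and featureCounts 1.18.0, and the builds hg19 and GRCh37. How strand and multiply matching reads were handled is unknown: not given in the sources used here. Libraries carry no molecular identifiers.

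In R 4.3.3, edgeR 4.0.16 filtered genes (filterByExpr, minimum count 10), computed TMM factors and fitted a single quasi-likelihood model to the 12 libraries, which leaves 9 residual degrees of freedom. Benjamini-Hochberg adjustment ran over all 13248 genes of a comparison, the threshold was 0.05, and every adjusted p is from this fit unless an alternative is named. The SE is the log2 fold change divided by the square root of F. The steps were tested on simulated counts. Gene names came from a GRCh38 table, and promoter windows from RefSeq (GRCh38.p14), a build other than the authors', so coordinates are given for these alone.

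The members and the gene lists were chosen with earlier results of these data known. Members got every library's value when called with a log2 fold change of at least 1 in size in 4OHT against DMSO or 4OHT+3DA against 4OHT. Pathway genes were named up to 3 per list by size of change in each of the first 2 comparisons, with 9 others always named; limiting this to 2 comparisons was decided after the data were seen. A further gene of the rule is not reported here. Alternatives were DESeq2 1.42.0 (a missing adjusted p counts as not called), RLE factors, library totals, no filter for low counts, a filter at a mean CPM of 1, an adjusted p under 0.01, the 8 libraries compared and each library left out in turn. A correction for transcript GC content (loess span 0.4, known for 12989 genes) was added after the data were seen. Plots used Python 3.11.15 with matplotlib 3.10.9.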

Additional observations from a re-analysis of the deposited data

Results flagged for a closer look

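In 7 of the 93 pairs of a tested member and a group, 1 of the 4 libraries stood apart from the others by Dixon's criterion at the 95% level, and chance gives about 1 in 20. With 4OHT, library 22 gave 0.559 CPM of the RNA sensor IFIH1, where the nearest library gave 1.53 CPM, and library 21 gave 7.35 CPM of the antiviral GTPase MX1, where the nearest gave 2.67 CPM. With DMSO, library 20 was high in both OAS3, the 2-5A synthetase (14.5 against 12.5 CPM), and IFITM3, the entry inhibitor (496.7 against 422 CPM). With 4OHT+3DA, library 30 was low in IFIT3 (6.97 against 9.12 CPM), library 31 was high in SAMD9L (14.9 against 8.35 CPM), and library 32 was low in the helicase DDX60 (0.898 against 2.07 CPM).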

How the results depend on the processing

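The falls of members with 4OHT were counted 21 to 24 in the alternatives at the same threshold. In 4OHT against DMSO, 5 members were higher with no filter on low counts, in place of 3, because OAS1 and OASL were then tested, and 11 pathway genes were higher with library totals, in place of 19. In 4OHT+3DA against 4OHT, an adjusted p under 0.01 left 2 members higher and 2 lower, 3 pathway genes higher and 4 lower, and 1044 genes higher and 900 lower over all. There, 12 pathway genes were higher and 9 lower with library totals, and 7 lower with no filter. The causes were not tested. With library totals the median of all genes in 4OHT against DMSO was -0.17 and that of the members -1.03, and the split over all genes was 2385 higher and 4727 lower, against 3511 and 3378 with TMM. The corresponding splits were 2535 higher and 1207 lower for 3DA added, against 1909 and 1649, and 2798 and 4035 for 4OHT+3DA against DMSO, against 3572 and 3253.

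With each library left out in turn, members called in 4OHT+3DA against 4OHT ran from 2 (without 4OHT library 23 or 4OHT+3DA library 31) to 5 higher and from 2 (without library 30) to 6 lower. Pathway genes called lower there ran from 7 (without library 24) to 18, with 9 without library 21 or 30. In the other comparisons members ran from 2 to 4 higher and from 20 to 23 lower.

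The log2 fold changes below changed sign, and none passed the threshold with TMM and all libraries or where its sign had changed. Some passed with their first sign in another alternative: in 4OHT+3DA against 4OHT, IFI6 without library 30 (0.33, adjusted p = 0.0474), IFIT5 with library totals (0.28, adjusted p = 0.0259) or without library 32 (0.29, adjusted p = 0.0133) and IFNGR1 with the GC correction (-0.25, adjusted p = 0.00337), and in 4OHT+3DA against DMSO SOCS2 without library 31 (-0.26, adjusted p = 0.025). In 4OHT against DMSO with library totals they were -0.077 for ISG15, -0.046 for SOCS3, -0.13 for TRAF3 and -0.086 for PNPT1, and with a library left out -0.0049 to 0.23 for SOCS3 and -0.044 to 0.090 for TRAF3. In 4OHT+3DA against 4OHT they were 0.039 for STAT2 and 0.012 for IFNGR1 with library totals, 0.0059 for STAT2 with no filter, and -0.21 for IFIH1, 0.047 for STAT2, -0.094 for IFIT5, -0.020 for PARP9, -0.049 for IFI44 and -0.16 for RIGI with the GC correction. Leaving out a library there gave -0.25 to 0.20 for IFIH1, -0.055 to 0.033 for STAT2, -0.29 to 0.17 for IFIT1, -0.16 to 0.18 for ISG20, -0.011 to 0.22 for PARP9, -0.0085 to 0.33 for IFI6, -0.012 to 0.38 for IFI35, -0.11 to 0.13 for IRF2, -0.010 to 0.59 for SOCS1, -0.038 to 0.094 for TRIM25, -0.40 to 0.78 for APOL1 and -1.46 to 0.72 for SECTM1. In 4OHT+3DA against DMSO they were -0.014 for IFNAR2 with library totals, 0.027 for STAT3 with no filter, and 0.084 for TYK2, 0.063 for STAT3, 0.030 for SOCS2 and 0.060 for TICAM1 with the GC correction. Leaving out a library there gave -0.062 to 0.41 for IRF9, -0.33 to 0.014 for MX1, -0.11 to 0.021 for TYK2, -0.053 to 0.024 for STAT3, -0.26 to 0.042 for SOCS2 and -0.16 to 0.022 for TICAM1.

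The following results were not called, and passed in at least 1 alternative (number in parentheses): IRF9 (3), IRF1 (8), IFI6 (7), IFNAR1 (3) and TRAF6 (3) in 4OHT against DMSO, IFIT5 (2), MX1 (2), ISG15 (1), CMPK2 (1), SAMD9L (2), IFI6 (1), IFNAR1 (5), TYK2 (3), IRF3 (1), IFNGR1 (1) and EPSTI1 (6) in 4OHT+3DA against 4OHT, and SAMD9 (3), IFI6 (1), IFI44 (4), XAF1 (1), JAK1 (1), CGAS (4), IRF3 (1) and SOCS2 (1) in 4OHT+3DA against DMSO.

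No paired analysis was possible because the groups share no replicate numbers. Members with few reads set the limit of depth: the 9 untested members held at most 53 reads in a group.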
